A study of Mus musculus with 8 samples.

Results

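The regions described here are the intergenic intervals that the array design names by position and strand, and whose probes read long intergenic noncoding RNAs (lincRNAs). A probe belonged to them if it was no control and its name was a genomic interval ending in F (forward strand) or R (reverse strand). It was kept where both arrays of at least 1 time flagged it as well above background. This left 5693 of the 16181 interval probes (35.2%), in 2693 of 4607 intervals counted per strand, or 2200 of 3540 counted without strand. All names carried the plain form of the interval, and 0 carried a lincRNA prefix. The intervals were between 62 and 7128487 bp long, with a median of 10676 bp and a second longest of 538251 bp, and carried 1 to 10 probes each (median 3).

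The cells were Csk-/- mouse embryonic fibroblasts (MEFs) transfected with pBKT2-c-Src, a vector from which doxycycline switches on c-Src. Csk is the kinase that holds Src family kinases inactive by phosphorylating their tail, and c-Src is a tyrosine kinase of growth factor and adhesion signalling. The groups were 0 h, 6 h, 24 h and 72 h of c-Src induction with 1 µg/ml doxycycline, with 2 arrays at each time and 8 arrays in all. All groups lacked Csk and carried the vector, and no array held cells without the vector or cells with Csk. The labels do not say how many clones the transfected cells came from, nor whether separate cultures stand behind the duplicates. The p-values therefore measure the spread between arrays, which may be technical. Doxycycline, time in culture and the row on the slide followed the time of induction, so their effects and that of c-Src cannot be told apart.

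LincRNAs are transcribed from stretches between protein-coding genes, mostly by RNA polymerase II, and many are spliced, capped and polyadenylated. They are usually held at lower levels than mRNAs, and several are known to act on chromatin, to regulate a neighbouring gene or to carry microRNA precursors. The labelled RNA was antisense cRNA primed from the poly(A) tail, so a probe has the sense of the transcript it reads, and transcripts without a poly(A) tail would be read poorly.

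The probe sequences below show what was measured at the intervals on which the results turn. The first 9 belong to intervals with the largest rises and falls, and capitals mark AATAAA, the most common polyadenylation signal, where it occurs. It was found in 2 of them, from position 30 in A_30_P01025059 and from position 37 in A_30_P01023295, counted from the 5′ end, and the last base of A_30_P01023295 is the 3′ end of its interval. The tenth is the probe with the highest mean signal, with its 10 CpG dinucleotides in capitals and 50 of 60 bases G or C. The last 2 were chosen for their overlap with RefSeq microRNA hairpins (GRCm38.p6), which the capitals mark, of let-7c-2 in A_30_P01033484 and Mir410 in A_30_P01029937.
A_30_P01025112 (chr10:120058696-120076196, R): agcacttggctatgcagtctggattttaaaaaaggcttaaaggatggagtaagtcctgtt
A_30_P01025059 (chr10:120069727-120136259, R): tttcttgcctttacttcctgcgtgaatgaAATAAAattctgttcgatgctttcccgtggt
A_30_P01018233 (chr12:82457625-82476325, R): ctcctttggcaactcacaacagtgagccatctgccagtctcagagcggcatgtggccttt
A_30_P01022970 (chr12:111287772-111333890, R): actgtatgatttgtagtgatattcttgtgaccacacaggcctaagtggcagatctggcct
A_30_P01032969 (chr4:132897264-132910714, R): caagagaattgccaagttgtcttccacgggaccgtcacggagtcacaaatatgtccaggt
A_30_P01025504 (chrX:50400250-50410825, R): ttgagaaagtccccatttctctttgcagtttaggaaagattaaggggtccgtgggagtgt
A_30_P01021981 (chr19:60220577-60238494, F): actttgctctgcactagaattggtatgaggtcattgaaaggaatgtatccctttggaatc
A_30_P01023295 (chr19:60220577-60238494, F): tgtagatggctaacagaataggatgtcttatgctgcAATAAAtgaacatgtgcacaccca
A_30_P01028122 (chr4:3169583-3180017, F): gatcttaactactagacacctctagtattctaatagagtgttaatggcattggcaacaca
A_30_P01031448 (chr14:78924115-78938125, F): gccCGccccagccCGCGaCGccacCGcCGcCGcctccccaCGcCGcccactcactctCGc
A_30_P01033484 (chr15:85412264-85549139, F): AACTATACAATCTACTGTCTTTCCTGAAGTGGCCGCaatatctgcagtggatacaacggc
A_30_P01029937 (chr12:110973190-110987668, F): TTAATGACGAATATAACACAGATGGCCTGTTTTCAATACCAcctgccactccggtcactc
All interval and probe positions are those of the deposited files, on mouse build mm9.

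Src itself read 149.9 and 167.6 in processed signal at 0 h and between 3035 and 4207 on the 6 later arrays, a log2 difference of 4.75 at 6 h, 4.57 at 24 h and 4.29 at 72 h (each limma, SE 0.06; adjusted p = 2.48e-05, 7.69e-06 and 9.86e-06). The Csk probe was at background, read as well above it on 0 arrays. Of 10 fibroblast markers 8 were well above background on all 8 arrays and Thy1 was on none. Of 7 epithelial markers 4 were on all arrays (Krt8, Krt18, Krt5 and Krt14), with Cdh1, Epcam and Cldn4 on none. Of 6 macrophage markers 2 were (Csf1r and Itgam), with Ptprc, Emr1 and Lyz2 on none. On all arrays were also 2 of 5 endothelial markers (Pecam1 and Kdr), 1 of 5 of skeletal muscle (Des) and 1 of 5 of adipocytes (Fabp4). Between 49.9% and 54.7% of the 59305 non-control spots of an array were well above background, and 0 were saturated.

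Detection of the interval probes was similar in size at the 4 times. Both arrays were well above background for 5145 interval probes at 0 h, 4988 at 6 h, 4909 at 24 h and 5085 at 72 h, and for 4456 at all 4 times. Only 509 were detected in this way at a single time, 185 of them at 0 h, 97 at 6 h, 51 at 24 h and 176 at 72 h. These passed the filter through that time alone, so the filter and a test of that time share its arrays. Their adjusted p-values below are therefore no independent support for the direction. Replicate 1 had more interval probes well above background than replicate 2 at each time, with 5704 to 6365 on the arrays of replicate 1 against 5174 to 5513. By strand, 2708 of 8171 F probes (33.1%) and 2985 of 8010 R probes (37.3%) were kept.

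The kept interval probes were dim. Their median level was -2.78 on the log2 scale relative to the 75th percentile of the array, against 0.45 for the 22916 other kept probes, which are mostly gene probes. When all kept probes were ranked by mean level, 48.7% of the interval probes and 19.1% of the gene probes lay in the dimmest quartile, and 4.60% and 30.1% in the brightest. The median SD between the duplicate arrays was 0.094 to 0.110 over interval probes and 0.048 to 0.070 over gene probes. A difference between times accordingly had a median SE of 0.13 for an interval probe and 0.075 for a gene probe. In whole-culture RNA, fewer cells with a transcript and less of it per cell cannot be told apart.

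**Figure D1:**
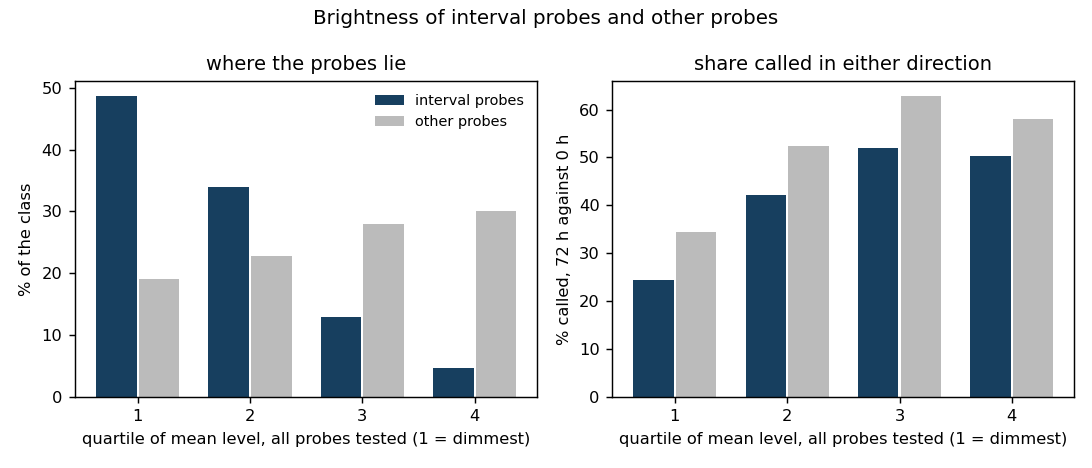
Left, percent of interval probes and of other probes (vertical axis) that lie in each quartile of mean level over all kept probes (horizontal axis, 1 the dimmest); right, percent of them called in either direction at 72 h against 0 h, by the same quartiles. Of interval probes 48.7% lay in the dimmest quartile, where 24.4% were called against 34.5% of other probes.

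Changes in the lincRNA intervals grew with the time of induction, and falls outnumbered rises at 24 h and 72 h under the scaling used here, whereas rises outnumbered falls with scaling to the array median. At 6 h against 0 h, 294 of 5693 interval probes were higher (5.16%) and 238 lower (4.18%), against a background of 8.98% higher and 5.77% lower among all 28609 probes tested (limma, adjusted p under 0.05). At 24 h against 0 h, 605 were higher (10.6%) and 890 lower (15.6%), against a background of 20.4% and 18.4%. At 72 h against 0 h, 774 were higher (13.6%) and 1227 lower (21.6%), against 26.3% and 23.6%. The intervals with at least 1 probe called higher numbered 182, 351 and 436 of 2693 at the 3 times, and those with at least 1 called lower 185, 559 and 720. Of the 18160 other names, which had 22916 kept probes, 1959, 4393 and 5737 had at least 1 probe called higher. Those with at least 1 called lower numbered 1324, 3915 and 4846. Among called interval probes that changed at least 2-fold, 39 rose and 26 fell at 6 h (0.685% and 0.457% of 5693, background 0.839% and 0.234%). At 24 h 84 rose and 136 fell (1.48% and 2.39%, background 1.76% and 2.83%), and at 72 h 125 rose and 270 fell (2.20% and 4.74%, background 3.05% and 4.97%).

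Fewer interval probes were called between successive times than at 24 h or 72 h against 0 h. From 6 h to 24 h, 255 interval probes rose (4.48%) and 496 fell (8.71%), against a background of 10.8% and 11.8%. From 24 h to 72 h, 266 rose (4.67%) and 394 fell (6.92%), against 9.43% and 9.89%. The median difference over interval probes was -0.02 at 6 h, -0.08 at 24 h and -0.08 at 72 h against 0 h, where that over all probes was 0.01, -0.01 and 0.00. Both strands had calls in both directions: at 72 h, 351 of 2708 F probes rose and 565 fell, and 423 of 2985 R probes rose and 662 fell.

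Which direction prevailed among the called interval probes depended on the scaling of the arrays. With the 75th percentile, 55.3% of the calls at 6 h were higher, 40.5% at 24 h and 38.7% at 72 h. Scaling to the array median gave 69.0%, 66.0% and 64.0%, and it raised the median difference of all probes by 0.15 at 24 h and 0.18 at 72 h. The 75th percentile over probes detected on all arrays gave 36.2%, 30.5% and 27.3%, and quantile normalization 57.4%, 48.3% and 49.9%. For 24 h against 6 h the share was 34.0%, and 60.2% with the median and 44.1% with quantile normalization; for 72 h against 24 h it was 40.3%, and 51.1% with the median.

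The counts at 6 h and at the later steps also rested on single arrays. The 532 interval probes called at 6 h against 0 h became 276 without 0 h replicate 1, 231 without 0 h replicate 2, 233 without 6 h replicate 1 and 158 without 6 h replicate 2. The 751 called from 6 h to 24 h became 346 and 294 without 6 h replicates 1 and 2, and 421 without 24 h replicate 2. The 660 called from 24 h to 72 h became 282 without 24 h replicate 1, and 169 and 208 without 72 h replicates 1 and 2. In each such fit the lone array is assumed to vary like the other groups.

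**Figure D2:**
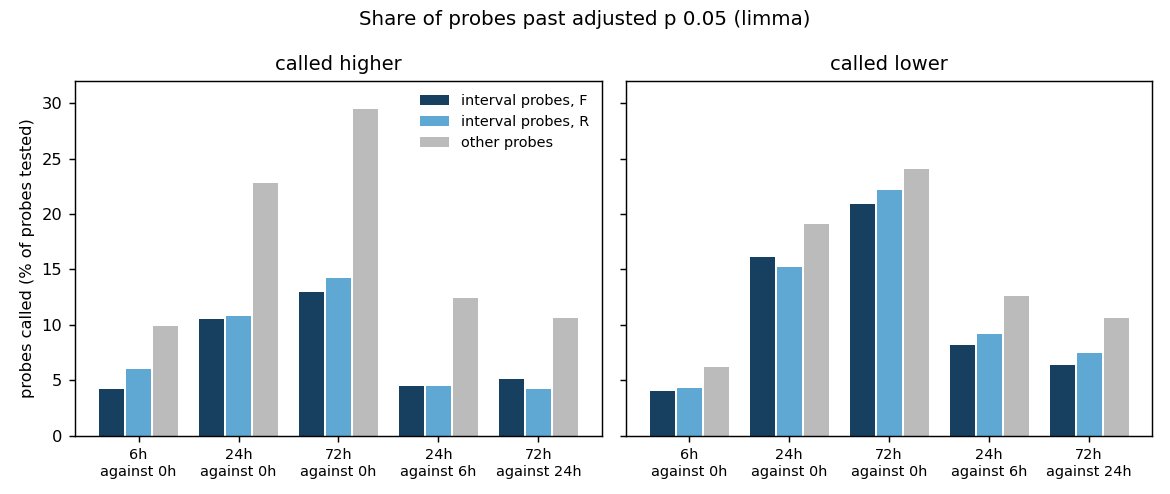
Percent of probes called higher (left) and lower (right) in each of the 5 comparisons of times (horizontal axis), as bars for F interval probes, R interval probes and all other probes. At 72 h against 0 h, 29.5% of other probes were higher and 24.1% lower, where interval probes of both strands together gave 13.6% and 21.6%.

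The share called was lowest among the dimmest probes of both kinds. In the dimmest quartile of level, 24.4% of interval probes and 34.5% of gene probes were called at 72 h against 0 h. In the next quartile the shares were 42.1% and 52.3%. At 6 h, 6.06% of interval probes and 7.35% of gene probes of the dimmest quartile were called. How far brightness accounts for the gap to gene probes was not tested.

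The median SD of the differences within an interval was smaller than the SD of the same probes pooled. Among the 827 intervals with at least 3 kept probes, the median SD within an interval was 0.15 at 6 h, 0.17 at 24 h and 0.19 at 72 h against 0 h. The SD over the 3205 kept probes of these intervals together was 0.37, 0.53 and 0.65. A median of SDs and a single pooled SD, which large differences raise, are unlike measures. Every kept probe was called higher in 15 of these intervals at 6 h, 36 at 24 h and 55 at 72 h, and every kept probe was called lower in 5, 60 and 97. The same count was not made over other names, so whether these numbers are unusual for the array was not tested. With scaling to the array median these counts were 17 higher and 2 lower at 6 h, 54 and 35 at 24 h, and 85 and 59 at 72 h, so that their balance turned at 24 h and 72 h. Leaving out any 1 array gave totals of 4 to 17 in place of 20 at 6 h. The 5 lower ones at 6 h became 0 without 0 h replicate 1, 0 h replicate 2 or 6 h replicate 1, and 1 without 6 h replicate 2. It gave 62 to 87 in place of 96 at 24 h, lowest without 0 h replicate 1, and 97 to 154 in place of 152 at 72 h, with 97 without 72 h replicate 2 and 101 without 0 h replicate 1. Calls in both directions occurred in 2, 13 and 24 of the intervals. Probes of an interval can read the same transcript, and 364 of 5651 kept probes with a position overlapped another on the same strand. Of the 2693 kept strand intervals, 1010 overlapped another on the same strand, so the intervals counted are not all distinct.

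**Figure D3:**
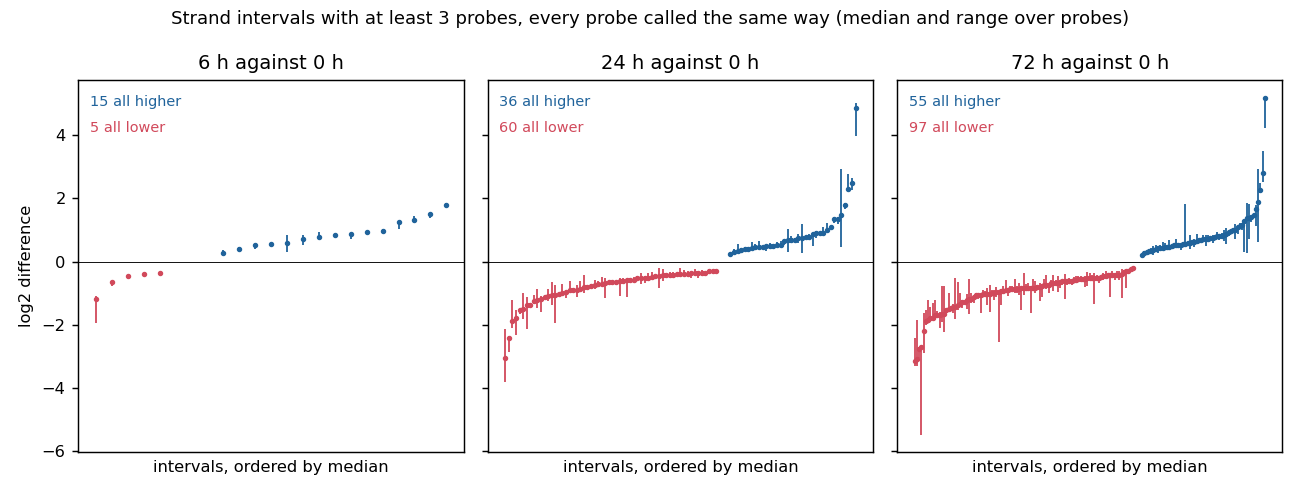
Log2 difference (vertical axis) from 0 h at 6 h, 24 h and 72 h for every interval with at least 3 kept probes that were all called the same way, ordered by median (horizontal axis). Points are medians over the probes of an interval and lines their range, with 15, 36 and 55 intervals higher and 5, 60 and 97 lower (17, 54 and 85 higher and 2, 35 and 59 lower with scaling to the array median).

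The largest fitted rise lay on chromosome 18, in the interval chr18:70400082-70404236 on the R strand. Its probe A_30_P01030369 was well above background on none of the arrays at 0 h or 6 h. At 24 h it read 94.06 and 112.8, and at 72 h 116.1 and 118.8. The later arrays thus stood apart from the earlier ones without overlap. Their means were at least 7.60-fold higher at 24 h and at least 8.78-fold higher at 72 h than 0 h (adjusted p = 0.000244 and 9.9e-05), and 3 of 3 probes were called. The interval holds a probe of Dynap, a protein-coding gene, with log2 differences of 4.70 and 4.90. It has the position of A_30_P01030369 itself, so the pair reads the same 60 bases.

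A pair of intervals on chromosome 10 that overlap on the same strand rose early and stayed high. In chr10:120058696-120076196 on the R strand, probe A_30_P01025112 read 33.61 and 40.17 at 0 h, 114.3 and 107.6 at 6 h, 327.7 and 398.2 at 24 h, and 285 and 260.5 at 72 h. All later arrays lay above both 0 h arrays, and the 24 h arrays were the highest. The rise was 3.102-fold at 6 h, 9.77-fold at 24 h and 7.47-fold at 72 h (log2 1.63, 3.29 and 2.90, each SE 0.14; adjusted p = 0.0029, 0.000153 and 8.87e-05). The interval's other kept probe rose by 1.53, 3.24 and 2.78 on the log2 scale. The interval holds a probe of the lncRNA 4930471E19Rik, which rose by 1.27, 2.92 and 2.50.

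The second interval of the pair, chr10:120069727-120136259 on the R strand, carries A_30_P01025059. It read 8.522 and 10.81 at 0 h, when it was not well above background, then 25.56 and 32.24, 91.57 and 121.4, and 73.65 and 68.99. The order of the times was the same as in the first interval, with no overlap between 0 h and any later time. This interval also holds a 4930471E19Rik probe, 0.136 kb from A_30_P01025059 and 0.802 kb from A_30_P01025112. Whether the 2 intervals read the same transcript was not tested, so they are no separate observations. A_30_P01025059 was at least 2.19-fold, 7.78-fold and 5.33-fold higher than 0 h (adjusted p = 0.00786, 0.000284 and 0.000227). Hmga2, an architectural chromatin protein encoded on the same chromosome, had 2 probes of which A_52_P300730 rose by 1.81, 3.52 and 3.21 in log2 units and A_55_P2043921 by 1.71, 3.61 and 3.17.

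A rise that was highest at 6 h and then declined was seen on chromosome 3. In chr3:137742666-137744470 on the F strand, A_30_P01024709 read 360.7 and 389.5 at 0 h, 1358 and 1414 at 6 h, 853.3 and 829.8 at 24 h, and 570 and 595.3 at 72 h. The 4 times did not overlap and fell in the order 6 h, 24 h, 72 h and 0 h. The log2 differences from 0 h were 1.93, 1.16 and 0.65 (each SE 0.06; adjusted p = 0.000118, 0.000245 and 0.00062). In the longer interval around it, chr3:137736327-137752677, 4 of 5 probes were kept and all 4 were called at each time, by 1.79 to 1.84, 1.04 to 1.12 and 0.60 to 0.64, A_30_P01026252 the most at 6 h. Both intervals hold a probe of the protein-coding gene 1110002E22Rik, which rose by 1.82, 1.13 and 0.64. A probe of this gene overlaps A_30_P01024709 in position on the same strand, and one lies 0.172 kb from A_30_P01026252. Whether gene and interval probes read the same transcript was not tested.

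The same course was seen beside Nr4a1, an immediate early gene that encodes an orphan nuclear receptor. In chr15:101084597-101095097 on the F strand, A_30_P01028030 read 46.66 and 56.24 at 0 h, 159 and 160.3 at 6 h, 104.6 and 103.1 at 24 h, and 75.05 and 65.42 at 72 h. No arrays of different times overlapped, and the differences from 0 h were 1.68, 1.01 and 0.46 (adjusted p = 0.000943, 0.00114 and 0.0118). The Nr4a1 probe, on the same strand 11.7 kb away, rose by 1.65, 0.70 and 0.76. The interval's other kept probe differed by 0.06, 0.02 and 0.17 and was not called, so the interval did not move as a whole.

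The largest fitted rise at 6 h was that of a dim probe, A_30_P01020566 of chr18:49644984-49645412 on the F strand, the only one of its interval's 3 that was kept. It read 5.13 and 3.547 at 0 h, 12.1 and 39.31 at 6 h, 2.789 and 3.583 at 24 h, and 2.426 and 3.246 at 72 h. It was well above background at 6 h alone, where its arrays lay far apart. Its selection and its tests therefore share the 6 h arrays. The 6 h level was at least 1.66-fold above 0 h and 1.73-fold above 24 h (adjusted p = 0.0437 and 0.0201). The first call was lost in 11 of 19 alternatives, with adjusted p up to 0.305, and the second in 6 of 19.

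In chr19:46419916-46421753 on the F strand, all 3 probes were called at 6 h and 24 h, with medians of 1.51 and 0.90, and none at 72 h, with a median of 0.07. Between the genes that flank it, Cuedc2 and 2310034G01Rik, RefSeq lists Mir146b, a microRNA known as a target of NF-kB signalling, and the lncRNA Gm36493. In chr1:175654606-175672031 on the R strand, 5 of 5 probes were called at 6 h with a median of 0.87, 4 at 24 h with a median of 0.37, and none at 72 h with -0.15. It lies beside the interferon-inducible gene Ifi204, whose probe differed by 0.81, 0.31 and -0.16.

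**Figure D4:**
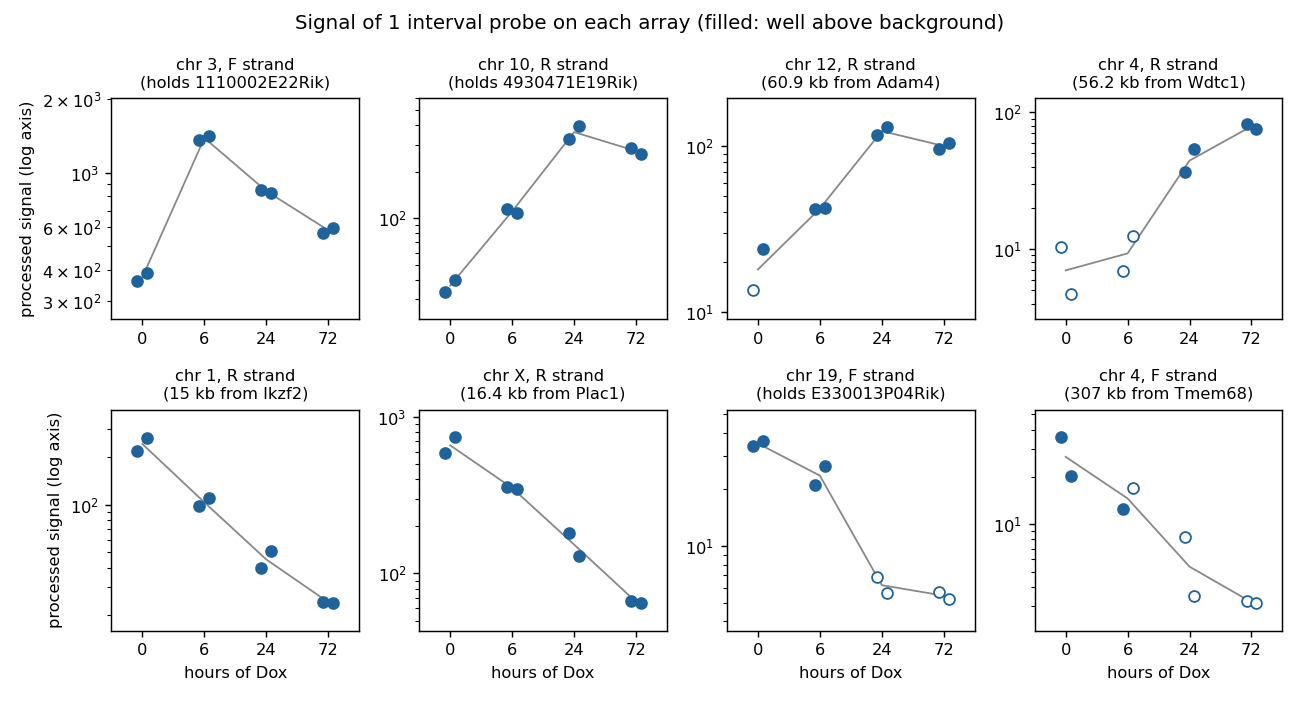
Processed signal (vertical axis, log scale) of 1 probe from each of 8 named intervals, by time of induction (horizontal axis, h), with 1 point per array, filled where well above background, and a line through the means of the times. The upper row holds rises and the lower row falls, such as the chromosome X probe A_30_P01025504 from 587.2 and 742 at 0 h to 66.92 and 64.73 at 72 h.

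Other intervals rose with every kept probe called at 6 h, 24 h and 72 h. In chr12:82457625-82476325 on the R strand, A_30_P01018233 read 13.47 and 24.02 at 0 h, 41.55 and 42.39 at 6 h, 116.1 and 130.8 at 24 h, and 95.72 and 104.8 at 72 h. Later arrays did not overlap with 0 h, where 1 of the 2 arrays was well above background, and the differences were 1.26, 2.77 and 2.49 (each SE 0.26; adjusted p = 0.0322, 0.00104 and 0.000877). The 6 h call was lost in 8 of 18 alternatives, with adjusted p up to 0.147. All 3 probes of the interval were called at each time, with medians of 1.25, 2.31 and 2.25. The nearest kept named probe, of Adam4, a gene of the ADAM protease family, lies 60.9 kb from A_30_P01018233 on the same strand. The Adam4 probe differed by -0.29, -0.38 and -1.25.

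The interval chr5:91480533-91502237 on the R strand lies between Epgn and Ereg, which encode the EGF receptor ligands epigen and epiregulin. Its 3 probes rose by medians of 1.31, 1.78 and 1.48, with all 3 called at each time. The Epgn probe, 16.4 kb away on the opposite strand, had the opposite sign, with -0.92, -1.46 and -2.53. In chrX:18734106-18744367 on the R strand, 3 of 3 probes were called at each time, with medians of 0.95, 1.36 and 1.42.

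Several rising intervals lie in stretches for which RefSeq lists microRNA or lncRNA genes between the same flanking genes. RefSeq's gene order here is that of GRCm38.p6, and whether an interval overlaps such a gene was not tested. In chr6:31007184-31007725 on the R strand, 3 of 3 probes rose at each time, with medians of 0.79, 1.35 and 1.08. Mir29a and Mir29b-1, which target collagen mRNAs, and Lncpint, a p53-induced lncRNA, are among the genes listed there. In chr18:61809278-61825191 on the R strand, 3 of 3 probes were called at 6 h and 72 h and 2 at 24 h, with medians of 0.98, 0.53 and 0.71. Mir143, Mir145a and their host lncRNA Carmn, known from smooth muscle, are listed between its flanking genes.

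In chr2:128211990-128215223 on the R strand, 3 of 3 probes rose at each time, with medians of 0.84, 0.90 and 0.75. The probe of Morrbid, a lncRNA that controls myeloid cell lifespan through Bcl2l11, lies 69.9 kb away on the same strand and differed by 0.92, 1.27 and 1.14. In chr12:111287772-111333890 on the R strand, 6 of 8 probes were kept and all 6 were called at 24 h and 72 h, 2 of them at 6 h. Its probe A_30_P01022970 read 3.313 and 3.099 at 0 h, 16.78 and 10.69 at 6 h, 22.35 and 27.69 at 24 h, and 26.09 and 22.72 at 72 h. It was not well above background at 0 h and on 1 of 2 arrays at 6 h, and was at least 1.84-fold and 1.82-fold higher at 24 h and 72 h (adjusted p = 0.000642 and 0.000356). The nearest kept named probe was that of Mirg, the lncRNA of the imprinted microRNA cluster of that chromosome. This probe lay 338 kb from A_30_P01022970 on the opposite strand and had differences of 1.28, 1.52 and 1.302.

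A further set came up at 24 h or only at 72 h. In chr4:132897264-132910714 on the R strand, A_30_P01032969 read 10.33 and 4.739 at 0 h, 6.917 and 12.53 at 6 h, 36.35 and 54.14 at 24 h, and 82.7 and 75.4 at 72 h. The 0 h and 6 h arrays overlapped and were not well above background. The means of the later times were at least 3.27-fold and 5.90-fold higher than 0 h (adjusted p = 0.00745 and 0.00192), and 3 of 3 probes were called at both times. Another of them, A_30_P01032274, was at least 1.71-fold and 1.72-fold higher than 0 h (adjusted p = 0.000371 and 0.000188). The same-strand probe of Wdtc1, a substrate receptor of an E3 ligase, 56.2 kb away, differed by -1.26 at 24 h and -0.35 at 72 h.

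Beside Gsta1, a glutathione transferase of detoxification, A_30_P01028766 of chr9:78107225-78118850 (F strand) was at least 1.87-fold higher at 24 h and 2.76-fold at 72 h. It was not well above background at 0 h or 6 h (adjusted p = 0.00351 and 0.00111). In chr16:29907604-29946602 on the R strand, 0 of 3 probes were called at 6 h, 1 at 24 h and 3 at 72 h, with medians of 0.19, 0.75 and 1.68. In chr17:26911032-26912366 on the F strand the counts were 0, 2 and 3 of 3, with medians of 0.18, 0.29 and 1.39.

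Between Srsf3 and the cell cycle inhibitor gene Cdkn1a, where RefSeq lists Trp53cor1 (lincRNA-p21, a p53 target), A_30_P01020960 of chr17:29183003-29217681 on the R strand was at least 2.57-fold higher at 72 h (adjusted p = 0.00702). It was well above background on none of the arrays at 0 h and 6 h, and on 1 of 2 at 24 h. One probe of chr2:84344350-84370075 on the F strand, A_30_P01030054, was well above background only at 72 h. Its arrays read 25.52 and 94.76 there, far apart, and their mean was at least 3.68-fold above 0 h (adjusted p = 0.00317). A_30_P01030054 was the only kept probe of 5 in its interval and passed the filter through 72 h alone.

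Other dim probes were well above background on both arrays at 24 h alone. They passed the filter through 24 h, whose arrays their tests also use. In chr18:47352028-47352681 on the R strand, A_30_P01030551 read 5.034 and 4.487 at 0 h, 12.62 and 14.43 at 6 h, 29.32 and 30.07 at 24 h, and 16.04 and 11.14 at 72 h. Its 24 h arrays were the highest, and 24 h was at least 2.19-fold above 0 h and 2.09-fold above 6 h (adjusted p = 0.000365 and 0.0101, the second lost in 4 of 19 alternatives). A_30_P01027830 of chr15:10697243-10699102 (F strand) was at least 1.34-fold higher at 24 h than at 0 h and 1.44-fold than at 6 h (adjusted p = 0.00381 and 0.014, the second lost in 5 of 18 alternatives). In chrX:150158481-150175838 on the F strand, A_30_P01032289 read 14.93 and 74.12 at 24 h, far apart, and was not well above background at any other time. It was at least 2.45-fold above 0 h (adjusted p = 0.0397), and 11 of 19 alternatives did not call it.

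Among the falls, the interval beside Ikzf2, the gene of the transcription factor Helios, moved as a whole and from 6 h on. In chr1:69531191-69570566 on the R strand, A_30_P01017578 read 219.8 and 265.2 at 0 h, 97.59 and 109.5 at 6 h, 39.87 and 50.84 at 24 h, and 24.4 and 24 at 72 h. No times overlapped and each was lower than the one before. The differences from 0 h were -1.18, -2.43 and -3.31 (each SE 0.16; adjusted p = 0.00937, 0.000367 and 8.87e-05), and 5 of 5 probes were called at each time. The Ikzf2 probe A_52_P413515, on the same strand and 9.02 kb from the nearest interval probe, differed by -0.94, -1.99 and -1.94, so that it went no lower after 24 h. Another Ikzf2 probe, A_66_P122551, differed by -0.46, not called at 6 h, and by -1.49 and -1.50 at the later times. A shorter interval inside the longer one, chr1:69555180-69555559, had A_30_P01024279 at -1.25, -2.32 and -2.88. Its other probe, A_30_P01021987, was at least 4.01-fold and 4.48-fold higher at 0 h than at 24 h and 72 h (adjusted p = 0.00264 and 0.000687). Of the longer interval's 4 other probes, A_30_P01017761 differed by -1.37, -2.85 and -3.14, and the dim A_30_P01021299, well above background at 0 h alone, was at least 1.297-fold, 1.25-fold and 1.38-fold higher there. The 6 h call was lost in 3 of 19 alternatives for A_30_P01017578 and for A_30_P01017761, and in 7 of 18 for A_30_P01021299.

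The interval chrX:50400250-50410825 on the R strand lies between Hprt and Plac1, a gene of the placenta. RefSeq lists 8 genes between that pair, among them Mir322 and Mir503, microRNAs known to restrain cyclins and the cell cycle, and Mir542, Mir351 and the Mir450 genes. Its probe A_30_P01025504 read 587.2 and 742 at 0 h, 359.5 and 345.3 at 6 h, 181.3 and 129.2 at 24 h, and 66.92 and 64.73 at 72 h. Every time lay below the one before without overlap, and the 72 h level was 9.96-fold below that at 0 h. The differences from 0 h were -0.87, -2.12 and -3.32 (each SE 0.17; adjusted p = 0.0257, 0.000613 and 9.92e-05), the call at 6 h being lost in 7 of 19 alternatives (adjusted p up to 0.131). Of 6 probes, 4 were called at 6 h and 6 at 24 h and 72 h, with medians of -0.70, -1.89 and -3.09. Plac1, 16.4 kb from this probe on the same strand, differed by 0.08, -0.81 and -2.36.

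The largest fitted fall lay next to Pappa2, which encodes a protease of insulin-like growth factor binding proteins. In chr1:160888257-160910594 on the R strand, A_30_P01030585 read 61.08 and 302 at 0 h, 28.56 and 33.05 at 6 h, 9.547 and 9.929 at 24 h, and 2.612 and 3.377 at 72 h. The 0 h arrays differed widely from each other, though no later array reached either. The fall at 6 h was not called (adjusted p = 0.103), and from 24 h, when the probe was not well above background, 0 h was at least 10.45-fold higher than 24 h and at least 11.5-fold higher than 72 h (adjusted p = 0.00882 and 0.00165). The 3 probes of the interval, which were all called at 24 h and 72 h, match RefSeq promoter windows of Pappa2 on the same strand over all 60 bases. Another of the 3, A_30_P01030731, was at least 1.85-fold and 2.04-fold higher at 0 h than at 24 h and 72 h, and its 6 h level at least 1.26-fold above 24 h (adjusted p = 0.00495, 0.00527 and 0.0177, the last lost in 6 of 18 alternatives). The lncRNA 1600012P17Rik, which has a probe inside the interval, differed by -1.21, -2.24 and -2.89. Of the Pappa2 probes, A_55_P1984745 differed by -0.45, -2.28 and -2.98. The Pappa2 probe closest to the interval, A_52_P574993 at 123 kb, was well above background on none of the arrays.

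In chr19:60220577-60238494 on the F strand, A_30_P01021981 read 34.04 and 36.12 at 0 h, 21.19 and 26.48 at 6 h, 6.852 and 5.641 at 24 h, and 5.719 and 5.231 at 72 h. It was well above background at 0 h and 6 h and on no array afterwards. The difference at 6 h was -0.53 on the log2 scale (adjusted p = 0.045), but 14 of 18 alternatives did not call it, with adjusted p up to 0.449. The 0 h level was at least 2.70-fold above 24 h and 2.98-fold above 72 h (adjusted p = 0.00022 and 8.61e-05). The interval holds a probe of the lncRNA E330013P04Rik. The adjacent probe A_30_P01023295, which carries AATAAA at the interval's end, read 33.38 and 31.04, 22.8 and 21.63, 6.327 and 16.72, and 5.571 and 2.913. Its duplicates at 24 h were apart from each other, and its call at 24 h was lost in 13 of 19 alternatives, while 0 h was at least 2.73-fold above 72 h (adjusted p = 0.00509).

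In chr4:3169583-3180017 on the F strand, A_30_P01028122 read 35.67 and 20.22 at 0 h, 12.58 and 16.92 at 6 h, 8.304 and 3.471 at 24 h, and 3.223 and 3.158 at 72 h. It was not called at 6 h (adjusted p = 0.27), and 0 h was at least 2.07-fold above 24 h and 2.28-fold above 72 h (adjusted p = 0.0107 and 0.00289). All 3 probes were called at both times. The nearest kept named probe, of Tmem68, a membrane acyltransferase, lay 307 kb away on the opposite strand and rose by 0.68 and 0.83.

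In chr13:83867711-83878140 on the F strand, A_30_P01027795 was well above background at 0 h alone. Its 0 h level was at least 1.69-fold, 1.63-fold and 1.80-fold above 6 h, 24 h and 72 h (adjusted p = 0.00494, 0.00135 and 0.000682), and the interval's other kept probe was not called. A_30_P01027795 passed the filter only through the 0 h arrays that these tests use.

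The other probes with the largest falls at 6 h were dim, well above background on both arrays at 0 h and on neither at 6 h. A_30_P01026584 of chr16:57811599-58042454 (F strand) read 18.74 and 17.14 at 0 h, 2.373 and 3.04 at 6 h, 2.356 and 2.998 at 24 h, and 5.418 and 10.33 at 72 h. Its 0 h arrays stood above all others, with a mean at least 1.43-fold above 6 h (adjusted p = 0.00795). A_30_P01024918 of chr4:101010948-101032148 (F strand), between Jak1 and Ak4, where RefSeq lists Mir101a, read 19.75 and 40.09 at 0 h and 3.01 to 7.789 on the later arrays. Its 0 h level was at least 2.25-fold, 2.17-fold and 2.39-fold above 6 h, 24 h and 72 h (adjusted p = 0.0416, 0.0182 and 0.0261). A_30_P01018876 of chr13:62771112-62786278 (R strand) was at least 1.44-fold, 1.39-fold and 1.53-fold higher at 0 h (adjusted p = 0.0197, 0.0113 and 0.0093). These probes passed the filter through 0 h alone, whose arrays the tests use.

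Others were called against 0 h at 6 h and at neither later time. A_30_P01025976 of chr7:118248833-118267766 (R strand) read 18.39 and 36.76 at 0 h, 4.71 and 8.016 at 6 h, 16.45 and 16.8 at 24 h, and 9.591 and 18.7 at 72 h. The 0 h level was at least 2.08-fold above 6 h (adjusted p = 0.0438), and at least 1.52-fold for A_30_P01032711 of chr18:57104718-57105355 (F strand, 0.0264) and 1.53-fold for A_30_P01031217 of chr3:62727150-62758225 (R strand, 0.0365). Each of these 6 h calls was lost under some alternatives. They lost that of A_30_P01026584 in 3 of 19, A_30_P01024918 in 9 of 18, A_30_P01018876 in 6 of 18, A_30_P01025976 in 12 of 18, A_30_P01032711 in 9 of 19 and A_30_P01031217 in 10 of 18.

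Falls of moderate size covered all kept probes of 2 brighter intervals. In chr19:59498190-59531390 on the R strand, 5 of 5 probes were called at each time, with medians of -0.64, -1.37 and -1.28, and the interval holds a probe of Emx2os, the antisense RNA of a homeobox gene, at -0.41, -1.28 and -1.47. In chr13:62734450-62785325 on the R strand, 5 of 5 were called at each time, with medians of -0.47, -0.71 and -1.12.

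Further falls lay close to a gene that had the opposite sign, or came late. In chr1:133839368-133839762 on the F strand, 3 of 3 probes were called lower at each time, with medians of -0.37, -0.63 and -1.03. Nucks1, a nuclear DNA-binding protein gene on the same strand 10.9 kb away, differed by 0.10, 0.27 and 0.26. In chrX:11693432-11693908 on the R strand, the bright probe A_30_P01023452 read 1035 and 1352 at 0 h, 1988 and 1923 at 6 h, 2774 and 1885 at 24 h, and 615.8 and 555.6 at 72 h. It was above 0 h at 24 h and below it at 72 h, with a fall of 1.95 on the log2 scale between the last 2 times (adjusted p = 0.0051), although its 24 h arrays differed from each other and overlapped with 6 h.

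The remaining probes with large late changes were dim. A_30_P01024342 of chr10:6480075-6603900 (R strand), a late fall against 0 h, read 13.92 and 37.87 at 0 h, 10.89 and 48.95 at 6 h, 7.82 and 10.98 at 24 h, and 2.417 and 3.263 at 72 h. Its 0 h level was at least 1.95-fold above 72 h (adjusted p = 0.0243, lost in 6 of 18 alternatives). A_30_P01031408 of chr8:67552315-67561235 (R strand) read 20.11 and 49.29 at 6 h and 7.686 and 5.463 at 24 h, with the 6 h mean at least 2.49-fold above 24 h (adjusted p = 0.0189, lost in 6 of 19). From 24 h to 72 h, A_30_P01032673 of chr11:112898724-113062945 (R strand) went from 21.85 and 24.42 to 10.16 and 3.292, with 24 h at least 1.95-fold higher (adjusted p = 0.0447, lost in 14 of 18).

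A_30_P01031036 of chr13:98281158-98285757 (F strand), well above background on 1 of 2 arrays at 24 h, was at least 1.54-fold higher there than at 72 h (adjusted p = 0.0161, lost in 6 of 19). In the other direction, A_30_P01030921 of chr7:4827340-4863315 (R strand) was at least 1.60-fold higher at 72 h than at 24 h (adjusted p = 0.0101, lost in 4 of 18). A_30_P01019421 of chr11:97275905-97310538 (R strand), well above background on 1 of 2 arrays at 72 h, was at least 1.21-fold higher there (adjusted p = 0.0371, lost in 12 of 18).

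Interval probes close to a kept named gene probe on the same strand tended to show a difference like that of the gene. For the 1153 interval probes whose nearest gene probe was under 10 kb away on the same strand (347 gene probes), the correlation of the differences was r = 0.45 at 6 h, 0.64 at 24 h and 0.60 at 72 h against 0 h, with rank correlations of 0.41, 0.48 and 0.48. For 552 probes with the nearest gene probe under 10 kb away on the opposite strand, r was 0.17, 0.14 and 0.17. At 10 to 100 kb it was 0.26, 0.26 and 0.29 on the same strand (1611 probes) and 0.11, 0.12 and 0.09 on the opposite strand (1275 probes). Beyond 100 kb it was 0.07, 0.05 and 0.14 on the same strand (545 probes). These are descriptions across probes of the same arrays, which share gene neighbours and scaling, and the points are no independent replicates.

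The same-strand probes under 10 kb fall in 2 kinds. Where the interval itself held the gene probe (487 interval probes in 190 intervals), r was 0.60, 0.77 and 0.75, and where it did not (666 probes in 285 intervals), r was 0.30, 0.39 and 0.42. For 82 of the 487 the interval probe and the gene probe overlapped in position, as at Dynap, and without them r was 0.57, 0.74 and 0.72 over the other 405, and 0.42, 0.60 and 0.58 over 1071 of the 1153. At 72 h, member and gene were both called for 169 probes of the first kind, in the same direction for 160, and for 171 of the second kind, in the same direction for 104. Calls at 72 h were made for 46.4% of the probes under 10 kb on the same strand and for 27.5% of those on the opposite strand. Over all interval probes 13.6% were called higher and 21.6% lower at 72 h, and over all probes tested 26.3% and 23.6%.

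**Figure D5:**
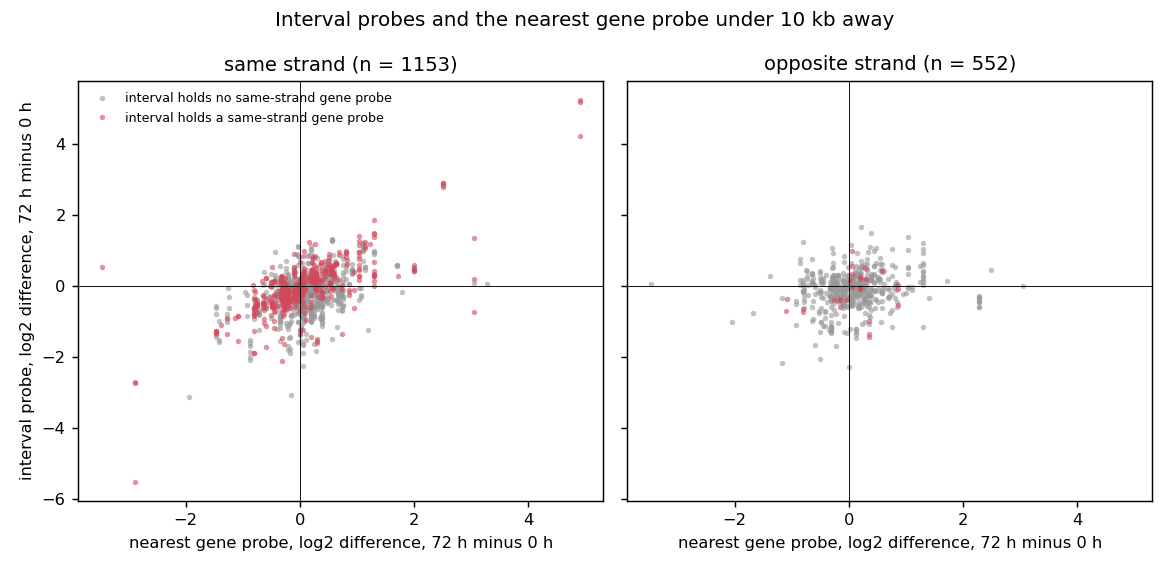
Log2 difference at 72 h against 0 h of each interval probe (vertical axis) against that of its nearest gene probe under 10 kb away (horizontal axis), for the same strand (left, 1153 interval probes, r = 0.60) and the opposite strand (right, 552, r = 0.17). Red points belong to intervals that hold a same-strand gene probe.

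The name intergenic did not hold for every interval. Of the 2693 kept strand intervals, 289 held a same-strand probe of a gene that RefSeq names, 121 of them a protein-coding one, and these intervals had 726 kept probes. At 72 h, 17.9% of those 726 were called higher and 25.3% lower, against 13.0% and 21.0% of the other 4967. Their median level was -2.11, against -2.88. The Dynap, 1110002E22Rik and 1600012P17Rik intervals above are of this kind.

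The strands of an interval showed little correlation. Among 493 intervals with kept probes on both strands, the median differences of the strands correlated with r = 0.05 at 6 h, 0.20 at 24 h and 0.11 at 72 h. An interval with both strands bright, chr19:56820850-56837925, lies between the adrenergic receptor gene Adrb1 and Ccdc186. Its F probe A_30_P01029927 read 1541 and 1473 at 0 h, 1640 and 1653 at 6 h, 2581 and 2679 at 24 h, and 2739 and 2657 at 72 h. Its R probe A_30_P01027445 read 26970 and 26330, 29420 and 30570, 40520 and 45870, and 47050 and 44920. For both probes the 24 h and 72 h arrays lay above all earlier ones. The differences from 0 h were 0.79 and 0.85 on F and 0.68 and 0.80 on R (limma, adjusted p = 0.000489 and 0.000213 on F, 0.00234 and 0.000873 on R). The other kept probe of each strand is not described.

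The other 4 of the 5 intervals brightest on both strands had a call against 0 h on the F strand alone or none. The interval chr17:39960567-39992817 lies in a stretch where RefSeq lists Rn18s-rs5, a sequence related to 18S ribosomal RNA. Which RNA its probes read was not tested. Its F probe A_30_P01023888 read 55310 and 54580 at 0 h and 78480 and 74720 at 72 h, a difference of 0.49 (limma, adjusted p = 0.000854). The R probe A_30_P01018010 read 33230 and 31460 at 0 h and 37200 and 35800 at 72 h, a difference of 0.18 that was not called. In chr17:71242333-71273533 the F probe A_30_P01032549 differed by -0.31 at 24 h (adjusted p = 0.005, lost in 2 of 20 alternatives) and the R probe A_30_P01017996 by -0.03, not called. In chr6:83368261-83407280 the F probe A_30_P01032016 differed by -0.23 at 72 h (adjusted p = 0.0468, lost in 11 of 20) and the R probe A_30_P01026288 by -0.07, not called. Neither A_30_P01020570 nor A_30_P01031264 of chr12:73838608-73862621 was called at any time. The difference between the strands was not tested.

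The brightest interval probes did not pass the threshold. A_30_P01031448 of chr14:78924115-78938125 read 205600 and 177100 at 0 h, 174600 and 167800 at 6 h, 175900 and 172100 at 24 h, and 163600 and 161800 at 72 h. Its 6 h and 24 h arrays overlapped, the 0 h arrays were the highest, and the differences from 0 h of -0.12, -0.14 and -0.22 (each SE 0.08) were not called. The other 4 of the 5 brightest, A_30_P01023523, A_30_P01022075, A_30_P01026458 and A_30_P01020015, were not called against 0 h at any time either. A_30_P01020015, in chr17:39982023-39983277, lies in a stretch where RefSeq lists Rn18s-rs5, a sequence related to 18S ribosomal RNA.

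The base composition of the probes went with their detection. Of probes with 31 or more of 60 bases G or C, 53.6% were kept, against 20.2% of those with 18 or fewer. Among kept probes, 35.9% of the 64 poorest and 16.8% of the 1570 richest in G and C were called lower at 72 h. Called higher were 9.4% and 10.6% of them. Over all interval probes 21.6% were lower and 13.6% higher, and over all probes tested 23.6% and 26.3%. AATAAA was on the probe strand in 634 of 16181 interval probes (3.92%) and on the other strand, as TTTATT, in 489 (3.02%), where 12.6% of gene probes held it on their strand. It was in 8.58% of the 2110 probes within 100 bp of the 3′ end of their interval and in 3.04% to 3.52% of those farther away. Of probes with it 38.6% were kept, and of those without it 35.0%.

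Few interval probes touched a known microRNA hairpin or promoter. A run of at least 20 bases was shared with one of 1004 RefSeq hairpins by 11 probes on the same strand, of which 5 were kept and 0 were called in a comparison with 0 h. The let-7c-2 probe A_30_P01033484 differed by 0.18, 0.46 and 0.30 and the Mir410 probe A_30_P01029937 by 0.36, 0.33 and 0.35, none of them called. On the opposite strand 9 probes shared such a run, of which 2 were kept and 1 was called: A_30_P01025521, which shares 20 bases with Mir1187, with -0.14 at 72 h (adjusted p = 0.0381). A run of at least 40 bases was shared with one of 32851 RefSeq promoter windows by 101 probes on the same strand, of which 43 were kept, and at 72 h 6 of these rose and 7 fell. On the opposite strand 128 probes shared one and 63 were kept, of which 6 rose and 6 fell, where the background at 72 h was 26.3% higher and 23.6% lower. The brightest probe, A_30_P01031448, shares 58 bases with the Akap11 window on the opposite strand.

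Noncoding RNAs with a name of their own give a comparison from the same arrays. Of 44 listed, 34 were on the array and 27 were tested. At 6 h 4 rose and 1 fell, at 24 h 6 rose and 6 fell, and at 72 h 11 rose and 8 fell, with median differences of 0.02, -0.015 and 0.21, and backgrounds as above. Neat1, the scaffold of paraspeckles, rose by 1.13, 1.07 and 1.29 (adjusted p = 0.000546, 0.000246 and 8.28e-05). Of 2 kept probes of Pvt1, the neighbour of Myc, A_55_P2051254 rose by 0.51, 0.82 and 1.23. The other differed by 0.21, 0.42 and 0.05, so the 2 parted at 72 h. The imprinted lncRNA H19 differed by 0.09, not called, then fell by 1.38 and 3.23 on the log2 scale. Snhg1 and Snhg12, hosts of small nucleolar RNAs, rose by 1.21 and 1.297 at 72 h.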

How the data were processed

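Total RNA of the 8 samples was labelled with Cy3 and hybridised to a 1-colour 60-mer array, per the labels' protocols. The deposited values are processed spot intensities on a linear scale that Feature Extraction had background-subtracted, per the file headers. Those headers name version 10.5.1.1 and build mm9, while version 10.7.3.1 stands in the submitters' processing notes. The authors' deposited value table holds the same intensities within 0.497% and was used as an alternative.

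From these, log2 of the deposited processed signal minus the 75th percentile of the array's non-control spots was computed, and spots of a probe were averaged. Probes well above background on both arrays of at least 1 time were tested together (28609 probes, 5693 of intervals) with limma 3.58.1 in R 4.3.3. The fit had 4 means, with 4 residual and 1.68 prior degrees of freedom. Adjustment was by Benjamini-Hochberg within each comparison, with a threshold of 0.05. A group on no array of which a probe was well above background has only a bound, given as at least that fold. It compares the brighter mean with the higher of 2 values per array, the probe's own signal and the lowest one flagged well above background, and depends on that limit. An adjusted p beside such a fold is that of the limma difference fitted without this limit, and does not test the bound. The number of arrays limits the precision.

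Names came from RefSeq accessions or symbols, and distances from the mm9 probe positions in the files. No position was given for 118 interval probes. The nearest gene probe was sought among kept probes only, so a probe that was not kept can lie closer. RefSeq sequences and gene order are those of GRCm38.p6. Named were, for each time against 0 h, the 8 interval probes with the largest called rise and fall, 3 and 3 for each later step, the 5 brightest, the 5 intervals brightest on both strands and up to 4 called noncoding RNAs, and, for those described at length, the nearest gene probe. Intervals whose kept probes were all called were ranked by median, and the hairpin probes, Hmga2 and the other genes beside intervals were chosen after their values were seen. The members, the gene and marker lists and this rule were chosen with earlier results of these data known. Alternatives were background correction, scaling, filters, a floor, array weights, the replicate block, the deposited value table, the 2 times alone and leaving out each array. All arrays lay on 1 slide, so no other slide could be compared.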

Additional observations from a re-analysis of the deposited data

Results flagged for a closer look

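One signal lay in probes that are not among the interval probes above, those of 3 intervals whose names carry no strand. Those that were kept count above among the other probes and in the background. All 5 probes of chr17:12941161-12944859 were well above background on all arrays, where 0% to 1.62% of 308 negative control spots of an array were. They fell by 0.64 to 0.73 on the log2 scale at 24 h and by 1.03 to 1.15 at 72 h against 0 h, called in each case, and none was called at 6 h. The probes of the other 2 intervals, on chromosomes 3 and 6, were kept in 0 of 3 and 0 of 5 cases. The named lncRNA Airn, for comparison, differed by -0.59 and -0.96 at 24 h and 72 h. Whether these probes read Airn was not tested.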

How the results depend on the processing

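Of 12 alternatives other than leaving out an array, 10 kept the count of called interval probes within 1.5 times at 24 h and 72 h against 0 h, 9 at 6 h and from 6 h to 24 h, and 8 from 24 h to 72 h. Without a filter on dim probes, which tests all probes, 41, 717 and 1276 were called at 6 h, 24 h and 72 h against 0 h, 112 from 6 h to 24 h and 24 from 24 h to 72 h. With the brightest probe of each name, which tests fewer probes, the counts were 258, 674, 893, 348 and 293. Fitting only the 2 times compared gave 207 at 6 h, 336 from 6 h to 24 h and 69 from 24 h to 72 h, and scaling to the median gave 409 from 24 h to 72 h. Leaving out 1 array gave 158 to 516 at 6 h, 1122 to 1381 at 24 h and 1414 to 2009 at 72 h against 0 h, 294 to 689 from 6 h to 24 h and 169 to 539 from 24 h to 72 h. The replicate block gave 569, 1615, 2087, 828 and 737 in the same order, and changed no count by 1.5 times. The labels give the numbers no shared source. The 6 correlations of same-numbered deviations were all above 0, from 0.059 to 0.14, but not all above 0.1, so the numbers were not taken to pair the arrays. Of 138 calls on 47 named probes, 73 held under every alternative that tested them, 65 were lost under at least 1, and 0 changed sign. The correlations with the nearest gene were also computed over all non-interval neighbours, chosen after seeing the data, and were 0.44, 0.59 and 0.59 against 0 h; leaving out overlapping pairs was also chosen after seeing the data. Dim probes set the limit: interval probes have a larger SE than gene probes, and a fold against a level not above background rests on the limit set for it.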
